A study of Homo sapiens with 6 samples.

Results

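The transcripts of 10 stemness factors, SOX2, POU5F1, NANOG, KLF4, KLF5, SOX4, SOX9, MYC, BMI1 and PROM1, were followed in RL95-2, a long-established line of human endometrial carcinoma cells, with and without adipocyte-conditioned medium (ADP-CM). The genes were taken by exact symbol, and all 10 were among the 23228 genes of the count tables. Control cells stood for 24 h in serum-free RPMI and DMEM mixed 1:1, and treated cells stood for the same 24 h in serum-free RPMI mixed 1:1 with ADP-CM, with 3 libraries in each group. The cells had been grown in RPMI with serum before the incubation. ADP-CM was medium kept on mature human adipocytes, which the paper took from visceral fat of female patients with a high BMI. It could carry any product of these cells or lack what they had used, which cannot be told apart here. The only recipient was 1 cell line. The labels number the replicates but do not say that they were separate cultures, so p-values measure only the spread between these libraries, which may be technical. The question behind the comparison was how an adipocyte-rich surrounding changes the transcription of the cancer cells, and here it is asked for the factors used to describe a stem-like state. From gene set enrichment analysis of ADP-CM-regulated genes, the paper reported a positive correlation with stem cells, among other themes. That result is for gene sets and the values here are for single genes, so they are unlike measures. The paper's RT-qPCR primers included SOX2 and c-MYC, and its text does not name the target genes measured.

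SOX2, POU5F1 (Oct4) and NANOG are the transcription factors of the core circuit that holds embryonic stem cells in the pluripotent state. KLF4 and MYC join SOX2 and POU5F1 in the set used to reprogram differentiated cells, and in STAT3-dependent mouse stem cells they lie downstream of leukaemia inhibitory factor. SOX4, SOX9 and KLF5 are factors of epithelial progenitors, BMI1 is a subunit of the chromatin-silencing complex PRC1 that sustains self-renewal, and PROM1 (CD133) is a surface glycoprotein used to sort tumour-initiating cells. In glandular epithelia such factors are also part of ordinary proliferation and differentiation, so their transcripts alone do not define a stem cell.

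The factors fell into a well-expressed group, a group with 24 to 44 reads per library and a group at or near the detection limit. Between 16262614 and 18363033 reads per library lay on genes, and edgeR's common biological coefficient of variation came to 1.67%. A count of 3 reads, the upper limit that a count of 0 allows, corresponded to 0.163 to 0.184 CPM (the read count scaled by library size) across the libraries, a limit that covers counting error only. Of the 10 factors, 7 passed edgeR's filter on low counts. The other 3, POU5F1, NANOG and PROM1, did not and have no place in the main test.

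ADP-CM raised MYC and SOX9 and lowered KLF4 at an adjusted p-value under 0.01 (edgeR, quasi-likelihood), and each of these changes was under 1.5-fold. SOX4, KLF5, SOX2 and BMI1 did not pass. Thus 2 of the 7 tested factors (28.6%) were raised, where 13.5% of the 12663 tested genes were raised, and 1 (14.3%) was lowered, where 13.0% of tested genes were lowered. In either direction 3 of 7 (42.9%) passed, beside 26.5% of all tested genes. With an added limit of 1.5-fold, 0 of the factors passed with edgeR, 0 with DESeq2 and 0 at an unadjusted p under 0.05, and 2.27% of tested genes passed with edgeR. The libraries of the 2 groups did not overlap for 3 of the 7 factors (MYC, SOX9 and KLF4), as for 45.5% of all tested genes. The median log2 fold change of the 7 factors was 0.09, beside -0.002 over all tested genes. With so few factors these shares are counts of named genes and not a property of the set.

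**Figure D1:**
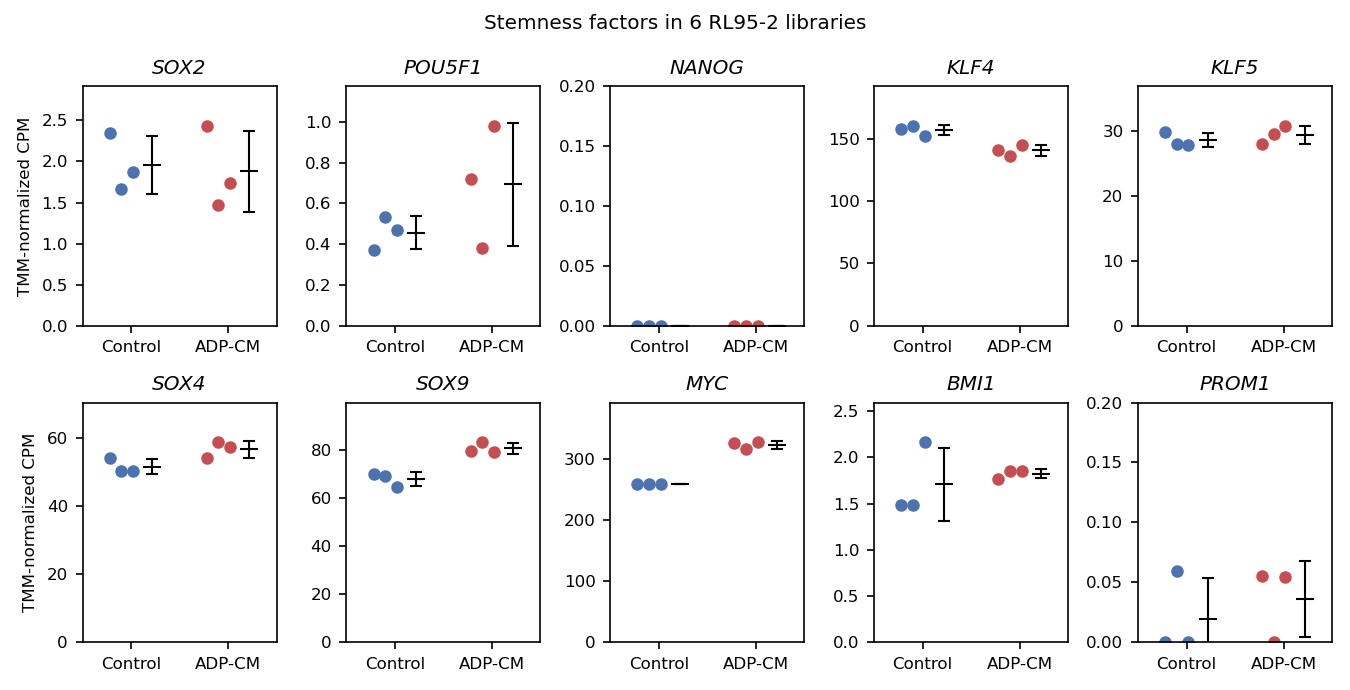
Level of each factor in TMM-normalized CPM (y axis, from 0, scaled for each gene) in the 3 Control libraries (blue) and the 3 ADP-CM libraries (red); the black bar is the mean with its SD (n = 3). The groups are apart for MYC (257.9 to 258.8 against 315.0 to 326.2 CPM), SOX9 and KLF4, overlap for SOX2, KLF5, SOX4, BMI1, POU5F1 and PROM1, and NANOG is at 0 throughout.

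Of the core pluripotency factors, SOX2 was present at a low level and did not differ detectably between the groups. SOX2 (GRCh37 chr3:181429713-181432224, plus strand) is a gene with 1 exon. It had 38, 28 and 32 reads in Control replicates 1, 2 and 3 and 44, 27 and 32 reads in ADP-CM replicates 1, 2 and 3. The highest and the lowest of the 6 counts both lay in the ADP-CM group. The mean level was 1.96 ± 0.35 CPM in Control and 1.88 ± 0.494 CPM in ADP-CM (SD, n = 3 each). The log2 fold change was -0.06 (SE 0.224, Benjamini-Hochberg adjusted p = 0.873 by edgeR). Its 95% interval ran from -0.50 to 0.39, which is 0.705-fold to 1.31-fold, so a rise of more than 1.31-fold lay outside the interval at this depth. The sign of the SOX2 change turned with single libraries, from -0.28 to 0.09 as each of the 6 was left out. SOX2OT, the long noncoding gene that hosts SOX2 in an intron, had 0 reads in 4 libraries and 1 read in ADP-CM replicates 2 and 3.

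POU5F1 lay just above the detection limit and was not tested in the main comparison. Its reads numbered 6, 9 and 8 in Control and 13, 7 and 18 in ADP-CM. ADP-CM replicate 2 lay inside the Control range, and the other ADP-CM libraries lay above it. The mean level was 0.457 ± 0.0821 CPM in Control and 0.693 ± 0.299 CPM in ADP-CM. With no filter on low counts the log2 fold change was 0.59, with a 95% interval from -0.23 to 1.43 (adjusted p = 0.338, edgeR's quasi-likelihood test), and DESeq2 gave no adjusted p. With single libraries left out, the fits that kept POU5F1 ranged from 0.46 without Control replicate 1 to 0.88 without ADP-CM replicate 2. The latter fit left out the ADP-CM library inside the Control range, with a 95% interval of 0.03 to 1.75 and an adjusted p by edgeR of 0.105. Without ADP-CM replicate 1 or ADP-CM replicate 3, the libraries with the most POU5F1 reads, the gene failed the filter and gave no value. The range thus leaves out the fits without these libraries. In the kept fits POU5F1 passed the filter only through these ADP-CM libraries, a selection that favours a rise. No change of POU5F1 is therefore read from the range or its interval. POU5F1 (GRCh37 chr6:31132114-31148508, minus strand) shares 8.6% of its exonic bases with TCF19 on the opposite strand, and it has near-identical copies elsewhere in the genome that short reads can be shared with. Of these, POU5F1B had 4, 2 and 3 reads in Control and 3, 6 and 1 reads in ADP-CM. The copies POU5F1P3 and POU5F1P4 had 0 to 4 and 0 to 6 reads per library. Reads that did not align uniquely were set aside in the counting, so POU5F1 and its copies may be undercounted. POU5F1 reads are therefore uncertain at this level.

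NANOG (GRCh37 chr12:7940390-7951742, plus strand) had 0 reads in all 6 libraries, which allows up to 0.184 CPM in the shallowest and 0.163 CPM in the deepest library. NANOGNB, its neighbour in name, also had 0 reads in every library. A difference of NANOG between the groups was not detectable at this depth.

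**Figure D2:**
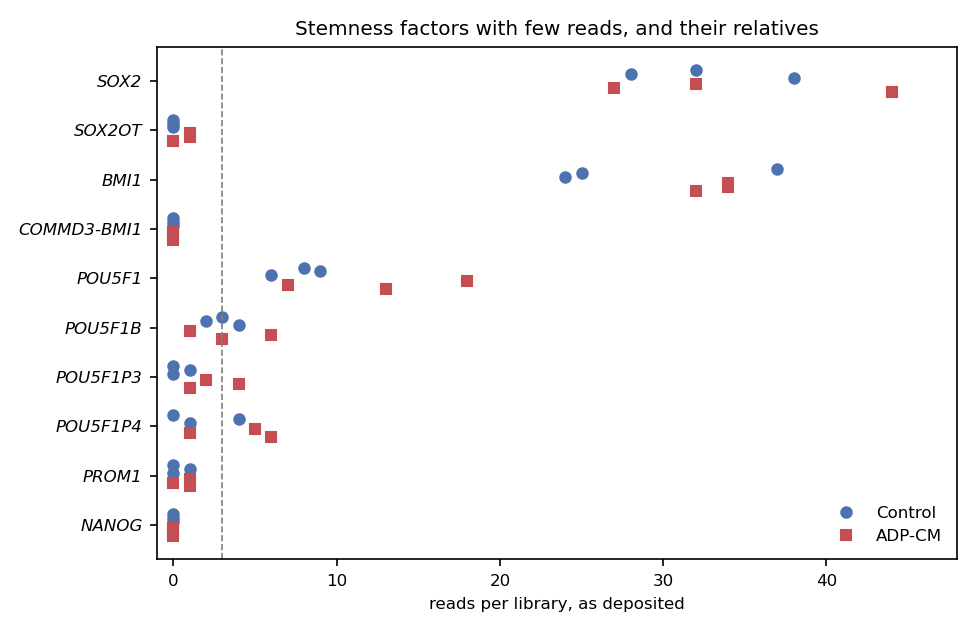
Reads per library as deposited (x axis) for the factors with few reads and for genes that share sequence, exons or a locus with them, in Control (blue circles, 3 libraries) and ADP-CM (red squares, 3 libraries); the dashed line marks 3 reads. SOX2 and BMI1 have 24 to 44 reads per library, POU5F1 has 6 to 18, and PROM1, NANOG, SOX2OT and COMMD3-BMI1 have 1 or 0.

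The wider set of pluripotency genes was mostly silent or not called. Of 35 listed genes, 12 were tested, with 2 raised, 0 lowered and 10 not called, beside 13.5% raised and 13.0% lowered of all tested genes. The median log2 fold change of the list was -0.03. Another 15 had 0 reads in all libraries, among them PRDM14, ZFP42 (REX1), DPPA4 and TDGF1, markers of embryonic stem cells. The raised genes were RIF1, a telomere and replication-timing protein present in all dividing cells (log2 fold change 0.12, adjusted p = 0.000499), and TERT, the catalytic subunit of telomerase (0.49, adjusted p = 0.00189), both Benjamini-Hochberg adjusted values of edgeR. TERT stood at 5.03 ± 0.452 CPM in Control and 7.04 ± 1.09 CPM in ADP-CM, and with DESeq2 its adjusted p was 0.0343. Leaving out Control replicate 3 or ADP-CM replicate 2 left 0 raised genes, and leaving out Control replicate 2 left 1. Without ADP-CM replicate 3, 1 gene was lowered instead of 0. Neither gene is particular to pluripotent cells.

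The Krüppel-like factors KLF4 and KLF5 bind the same GC-rich DNA motif and act in epithelia in different ways, KLF4 mainly in cells leaving the cycle and KLF5 in dividing progenitors. KLF4 was lowered by ADP-CM, and KLF5 was not called. The 250 bases before the start of KLF4 are shown because it is the lowered factor and its window holds the E-box CACGTG, the site that MYC with its partner MAX, and other factors of the same class, can bind. BMI1 is shown for comparison, since its window is the other one among the factors with this motif. Both are from RefSeq on GRCh38.p14, written 5′ to 3′ on the gene's strand and ending at the last base before the start, with the E-box in capitals.
KLF4 (chr9:107489770-107490019, minus strand): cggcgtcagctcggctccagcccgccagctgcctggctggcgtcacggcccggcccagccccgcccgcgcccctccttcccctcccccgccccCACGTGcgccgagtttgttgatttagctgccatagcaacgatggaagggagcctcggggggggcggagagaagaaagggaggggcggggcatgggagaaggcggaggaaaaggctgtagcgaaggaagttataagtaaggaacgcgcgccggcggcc
BMI1 (chr10:22320849-22321098, plus strand): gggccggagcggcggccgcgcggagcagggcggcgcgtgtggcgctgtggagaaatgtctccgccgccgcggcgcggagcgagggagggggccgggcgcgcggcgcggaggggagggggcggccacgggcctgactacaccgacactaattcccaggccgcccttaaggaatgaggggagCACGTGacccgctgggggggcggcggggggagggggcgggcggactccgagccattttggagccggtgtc
The E-box lies at bases -157 to -152 of KLF4 and -70 to -65 of BMI1, counted back from the start. GC made up 69.2% of the KLF4 window and 76.8% of the BMI1 window, beside a median of 58.0% over all 35116 windows. The RefSeq table held 12 windows for 7 of the 10 factors (SOX2, SOX4, KLF4, KLF5, NANOG, PROM1 and BMI1). It held none for MYC, SOX9 or POU5F1, so the raised factors MYC and SOX9 were not searched for any motif. CACGTG was found in 2 of these 12 windows and in 6.34% of all windows. The STAT dimer motif TTCNNNGAA was in 0 of the 12 windows and in 6.57% of all windows, and its stricter form TTCCNGGAA in 0 and in 0.97%. The SOX motif ACAAT was in 1 window of KLF5 and 1 of NANOG and in 24.63% of all windows. Both strands were searched, every TTCCNGGAA is also a TTCNNNGAA, and a match shows letters and not binding.

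KLF4 (GRCh37 chr9:110247133-110252763, minus strand) had 2555, 2703 and 2606 reads in Control and 2552, 2500 and 2662 in ADP-CM, before the larger depth of the ADP-CM libraries was taken into account. On the CPM scale these were 157.5, 160.1 and 152.4 CPM in Control and 141.0, 136.3 and 144.7 CPM in ADP-CM. Every ADP-CM library lay below every Control library on this scale. KLF4 fell by 0.16 on the log2 scale (SE 0.0298, 95% interval -0.21 to -0.10, Benjamini-Hochberg adjusted p = 2.24e-05 by edgeR), a level 0.898 times that of Control. An lncRNA on the opposite strand covers 9.7% of its exonic bases, and the strand setting of the counting is not given in the sources used here. Across the 6 libraries, centred on each gene's mean log2 CPM, the tested genes with the profile most like KLF4 were WWC3, TRIM6 and CHMP4B, at a root mean square difference of 0.0132 to 0.0146 log2 units. In all, 808 tested genes lay within 0.05 log2 units of KLF4, so this likeness is common.

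KLF5 (GRCh37 chr13:73629114-73651679, plus strand) had 484, 475 and 477 reads in Control and 507, 541 and 566 in ADP-CM. The normalized ranges, 27.9 to 29.8 CPM and 28.0 to 30.8 CPM, overlapped. The log2 fold change was 0.04 (95% interval -0.07 to 0.16, Benjamini-Hochberg adjusted p = 0.611 by edgeR). A rise over 1.11-fold and a fall below 0.95 times the Control level thus lay outside the interval.

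Of the other KLF genes, 12 of 15 were tested, 3 were raised, 3 were lowered and 6 did not pass, and the median log2 fold change was -0.0012. The lowered ones were KLF3, a repressor of the family (-0.23, from 251.9 ± 3.89 to 215.3 ± 2.13 CPM), KLF10, a target of TGF-beta (-0.17), and KLF13 (-0.14). KLF7 rose from 7.81 ± 0.0856 to 11.9 ± 0.913 CPM (log2 fold change 0.60, Benjamini-Hochberg adjusted p = 7.47e-07 by edgeR), and KLF12 and KLF16 were also raised. With DESeq2, and with edgeR without Control replicate 2, 1 KLF gene was raised instead of 3. Calls in both directions were also seen over all tested genes, of which 13.5% were raised and 13.0% lowered.

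Among the SOX factors of progenitor cells, SOX9 was raised and SOX4 came close to the threshold. SOX9 sustains progenitors in many glandular epithelia. SOX9 (GRCh37 chr17:70117161-70122557, plus strand) had 1139, 1167 and 1105 reads in Control and 1445, 1525 and 1454 in ADP-CM. Its level was 70.2, 69.1 and 64.6 CPM in Control and 79.8, 83.2 and 79.1 CPM in ADP-CM, with no overlap. The log2 fold change of SOX9 was 0.25 (SE 0.0382, 95% interval 0.17 to 0.32, Benjamini-Hochberg adjusted p = 2.73e-07 by edgeR), or 1.19-fold.

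SOX4, a factor of progenitors and of epithelial-mesenchymal transition, lies at GRCh37 chr6:21593982-21598850 on the plus strand. It had 881, 853 and 860 reads in Control and 980, 1079 and 1057 in ADP-CM. Its levels of 54.3, 50.5 and 50.3 CPM in Control and 54.1, 58.8 and 57.5 CPM in ADP-CM overlapped at Control replicate 1 and ADP-CM replicate 1. The log2 fold change was 0.14 (SE 0.0442, 95% interval 0.05 to 0.23), and the Benjamini-Hochberg adjusted p of 0.0108 by edgeR missed the threshold of 0.01. SOX4 passed without Control replicate 1 (adjusted p = 0.00498) and without ADP-CM replicate 1 (0.00606), and did not with DESeq2 (0.0873). Whether SOX4 is called is therefore a matter of the settings, while its direction was the same in all of them.

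Of 16 other SOX genes, 6 were tested, 2 were raised, 0 were lowered and 4 did not pass. The median log2 fold change was 0.14, and over all tested genes 13.5% were raised and 13.0% lowered. SOX7, an endodermal and endothelial factor, rose from 47.6 ± 0.191 to 65.7 ± 1.83 CPM (log2 fold change 0.46, Benjamini-Hochberg adjusted p = 2.04e-14 by edgeR). SOX12, a close relative of SOX4, rose from 32.9 ± 2.67 to 41.8 ± 4.78 CPM (0.34, adjusted p = 2.52e-06). SOX1, SOX5, SOX10, SOX14 and SOX17 had 0 reads in every library. Without ADP-CM replicate 3, 1 SOX gene of this list was lowered instead of 0.

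MYC, the E-box-binding activator of growth genes, had the largest log2 fold change of the 7 tested factors. MYC (GRCh37 chr8:128747680-128755197, plus strand) had 4199, 4357 and 4410 reads in Control and 5882, 5777 and 6000 in ADP-CM. Its levels of 258.8, 258.0 and 257.9 CPM in Control and 324.9, 315.0 and 326.2 CPM in ADP-CM left a wide gap between the groups. The log2 fold change was 0.32 (SE 0.0234, 95% interval 0.27 to 0.37, Benjamini-Hochberg adjusted p = 3.54e-18 by edgeR). This is a rise of 24.7%, and its interval of 1.21-fold to 1.29-fold stays under 1.5-fold. The median size of the log2 fold change over all called genes was 0.21, so the MYC change was above and those of SOX9 and KLF4 were near this median.

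The profile of MYC over the 6 libraries was most like those of EPHB2, KIAA1211 and LRIG3, at 0.012 to 0.017 log2 units, and 183 tested genes lay within 0.05 log2 units. PVT1, the noncoding gene next to MYC, was looked up after its values were known. It had 294, 312 and 289 reads in Control and 375, 373 and 430 in ADP-CM (log2 fold change 0.27, Benjamini-Hochberg adjusted p = 0.00139 by edgeR). PVT1 was not called with DESeq2 (adjusted p = 0.0327). With edgeR it also lost its call without Control replicate 3 (adjusted p = 0.0192) and without ADP-CM replicate 3 (0.0301).

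Of 36 listed genes that MYC is known to induce for growth, all were tested, 18 were raised, 1 was lowered and 17 did not pass, where 13.5% of all tested genes were raised and 13.0% lowered. The list was not tested against other genes, and the median log2 fold change was 0.08. Their summed level was 11253.2 to 11359.0 CPM in Control and 11779.9 to 11978.5 CPM in ADP-CM. The raised genes moved little, as with the ribosome biogenesis proteins NOP2 (0.23, from 155.0 ± 6.71 to 181.1 ± 2.54 CPM) and NOLC1 (0.14, from 549.8 ± 1.45 to 606.2 ± 5.18 CPM) and the guanine nucleotide enzyme IMPDH2 (0.16). The lowered gene was ODC1, the rate-limiting enzyme of polyamine synthesis and a textbook MYC target, which fell by 0.32 on the log2 scale from 360.2 ± 1.5 to 289.0 ± 3.13 CPM (Benjamini-Hochberg adjusted p = 5.82e-19 by edgeR). Leaving out each library in turn gave 13 to 21 raised genes and 1 lowered, and DESeq2 gave 16 and 1.

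All 19 genes of a list of MYC partners and antagonists, which also holds the MYC relatives MYCN and MYCL1, were tested. Of these, 4 were raised and 2 lowered, beside 13.5% and 13.0% of all tested genes. The lowered ones were MXD3 and MYCL1, the latter by 0.29 on the log2 scale, and the median log2 fold change of the list was 0.07. With DESeq2 0 were called in either direction (edgeR's calls had DESeq2 adjusted p of 0.0173 to 0.0906). Leaving out replicate 2 or 3 of Control or replicate 3 of ADP-CM gave 2 raised instead of 4, and without Control replicate 1 or ADP-CM replicate 2, 0 were lowered. The 4 with the smallest p-values were the kinase PIM1 (0.17), the cofactor TRRAP (0.12), the antagonist MXD3 (-0.27) and the MLX partner MLXIP (0.14).

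BMI1 and PROM1 gave little to compare. BMI1 (GRCh37 chr10:22610028-22620413, plus strand) had 24, 25 and 37 reads in Control and 32, 34 and 34 in ADP-CM. Control replicate 3 was the highest of all 6 and the other Control libraries were the lowest. The mean level was 1.71 ± 0.395 CPM in Control and 1.82 ± 0.0484 CPM in ADP-CM (log2 fold change 0.09, 95% interval -0.36 to 0.55, Benjamini-Hochberg adjusted p = 0.79 by edgeR). In the GENCODE annotation 22.8% of the BMI1 exonic bases (1000 bases) also belong to the readthrough gene COMMD3-BMI1, which had 0 reads in every library. HTSeq by default sets reads on bases of more than one gene aside as ambiguous, and the RefSeq version of the counting was not used here, so the BMI1 level may be too low. COMMD3, the other gene of the readthrough, had 314 to 359 reads per library (log2 fold change -0.15, adjusted p = 0.0873).

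PRC1 subunits other than BMI1 were all tested (23 of 23), with 2 raised, 3 lowered and 18 not called. Their median log2 change was -0.02, where 13.5% of all tested genes were raised and 13.0% lowered. Among the subunits with the smallest p-values were RYBP, of the variant complexes (-0.14), the polyhomeotic subunit PHC2 (0.15) and the chromobox reader CBX7 (-0.28). With DESeq2 1 of these subunits was called, RYBP (adjusted p = 0.0063). Without Control replicate 2, 0 were raised and 1 was lowered, and without ADP-CM replicate 2, 1 was lowered.

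PROM1 (GRCh37 chr4:15964699-16086001, minus strand) had 0, 1 and 0 reads in Control and 1, 0 and 1 in ADP-CM, at or under the floor of 3 reads in every library, so no fold is given. Of the other surface and enzyme markers used for tumour-initiating cells, part were well expressed and moved both ways, and part were silent or below the filter. Of 32 listed, 20 were tested, 5 were raised, 6 were lowered and 9 did not pass, and the median log2 fold change was 0.05. Over all tested genes 13.5% were raised and 13.0% lowered. Another 5 of the list (ABCB5, LGR6, MCAM, THY1 and TSPAN8) had 0 reads in all libraries. CD44, the hyaluronan receptor, rose from 304.2 ± 3.99 to 411.4 ± 1.75 CPM (0.44, adjusted p = 5.86e-26), and the retinal dehydrogenase ALDH1A3 rose from 141.4 ± 3.13 to 206.7 ± 3.70 CPM (0.55, adjusted p = 9.25e-26), both Benjamini-Hochberg adjusted values of edgeR. The integrin ITGA6 rose by less (0.22). The adhesion molecule L1CAM fell by 0.53 on the log2 scale, from 351.1 ± 4.92 to 243.3 ± 2.83 CPM (adjusted p = 5.00e-29, by the same test). The 2 genes of the list called over 1.5-fold, named after their values were seen, were both lowered. The drug efflux pump ABCB1 (-1.28) went from 2.05 ± 0.287 to 0.838 ± 0.271 CPM, and the aldehyde dehydrogenase ALDH3A1 (-0.70) from 11.1 ± 0.948 to 6.83 ± 0.833 CPM.

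**Figure D3:**
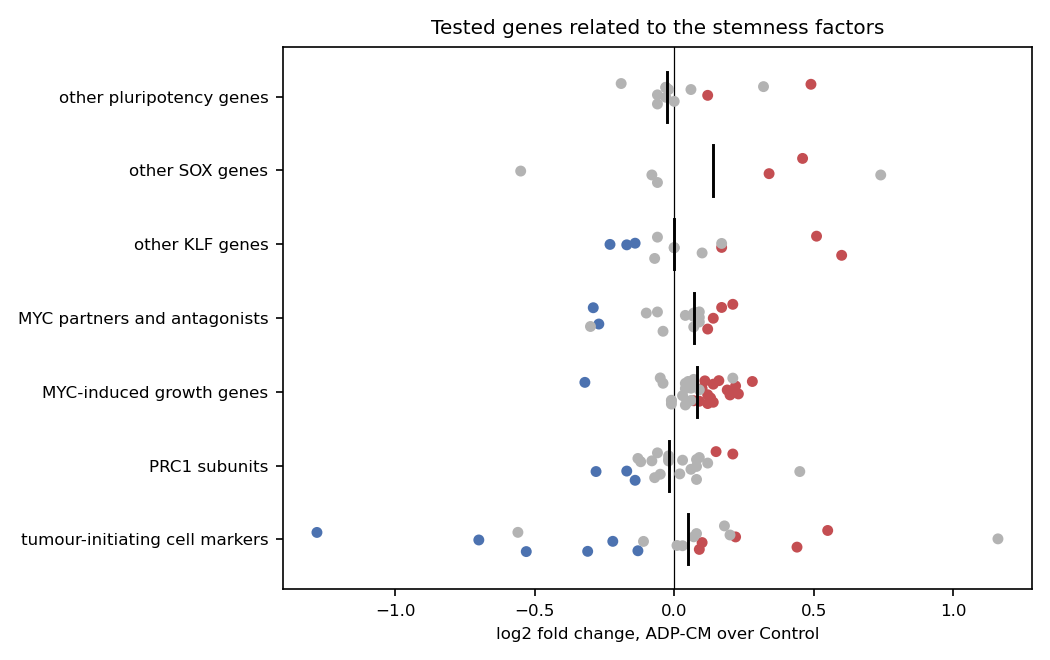
Log2 fold change of ADP-CM over Control (x axis) for the tested genes of each related list (y axis), with genes raised at an adjusted p under 0.01 in red, lowered ones in blue, the rest in grey, and the list median as a black line. MYC-induced growth genes lie mostly right of 0 (30 of 36), with ODC1 as the blue point at -0.32, and the tumour-initiating cell markers spread to both sides.

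**Figure D4:**
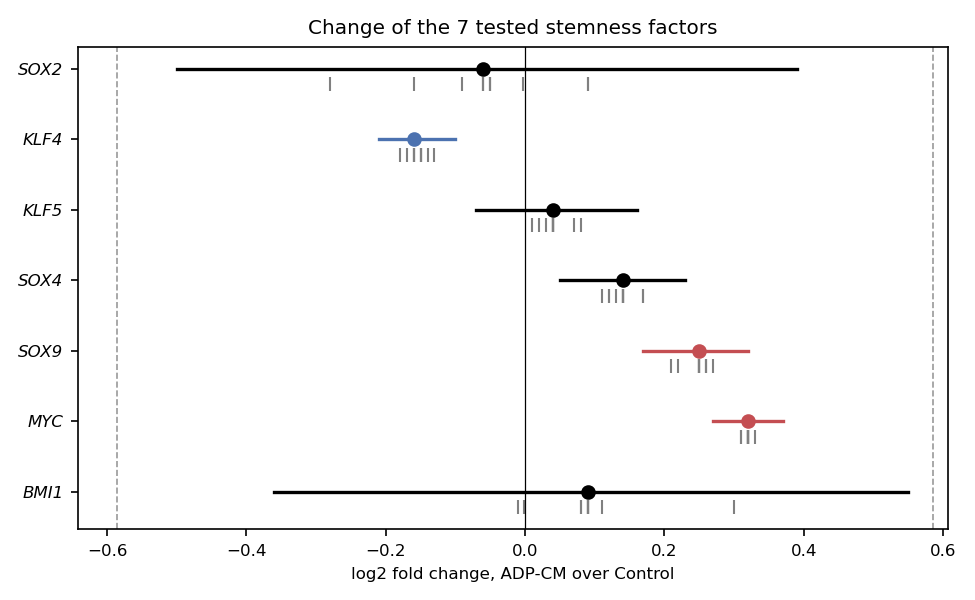
Log2 fold change of ADP-CM over Control (x axis) for the 7 tested factors, with the 95% interval as a line, red for raised, blue for lowered and black for not called; grey ticks are the values under the alternative settings and with single libraries left out, and dashed lines mark 1.5-fold. All 7 intervals lie inside the dashed lines, and the ticks of SOX2 and BMI1 fall on both sides of 0.

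The order of the factors by level was taken per kilobase of exonic sequence, from edgeR's normalized CPM and the GENCODE exon length. In Control KLF4 (42.8 ± 1.07 CPM per kb) and MYC (42.3 ± 0.0822) did not differ beyond their spread, followed by SOX9 (17.3 ± 0.753), SOX4 (10.6 ± 0.463), KLF5 (7.78 ± 0.288), SOX2 (0.779 ± 0.139), BMI1 (0.389 ± 0.0898) and POU5F1 (0.159 ± 0.0286). In ADP-CM MYC (52.7 ± 1.00 CPM per kb) stood above KLF4 (38.4 ± 1.15), and the order below them was the same. With the longest transcript as the length, MYC (69.4) was above KLF4 (53.4) in Control too, so the order of this pair rests on the length used. MYC per kilobase was above 92.2% and KLF4 above 90.5% of the 12165 tested genes with a length, while SOX2 was above 11.8% and BMI1 above 6.91%. The length of BMI1 includes the 1000 bases shared with COMMD3-BMI1, so its place may be too low. That of POU5F1 is as uncertain as its reads.

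Markers of other cell types lay mostly below the filter, and the summed level of some lists differed between the groups. Of 20 adipocyte markers, 5 were tested, 0 were raised and 2 were lowered (C10orf116 and LIPE), and 7 were at 0 reads in all libraries, the adipokines ADIPOQ and LEP among them. LIPE was not called with DESeq2 (adjusted p = 0.0103). The summed adipocyte list was 226.1 to 229.1 CPM in Control and 191.8 to 197.9 CPM in ADP-CM. Most of it came from ADIPOR2 (mean 161.7 CPM in Control and 152.8 CPM in ADP-CM) and C10orf116 (49.6 and 26.3 CPM). Of 12 adipose stromal, 11 leukocyte and 8 endothelial markers, 3, 2 and 2 were tested, with 1 raised (COL1A1), 1 raised (CD68) and 1 lowered (ESAM). ESAM was not called with DESeq2, without any 1 of the Control libraries or without ADP-CM replicate 2, and was not tested with at least 10 counts in every library. DPP4, DPT and PI16 of the stroma, MS4A1 and TYROBP of leukocytes, and EMCN and KDR of endothelium were at 0 reads throughout. The stromal list summed to 62.1 to 69.3 CPM in Control and 79.9 to 80.2 CPM in ADP-CM. Most of it was COL1A1 (mean 62.3 and 76.7 CPM). The leukocyte list summed to 8.60 to 9.86 against 11.2 to 13.5 CPM, most of it CD68 (7.43 and 10.7 CPM). The endothelial list summed to 62.7 to 68.7 against 55.9 to 62.7 CPM, most of it CDH5 (63.5 and 58.6 CPM). These sums thus follow single genes and are no measure of a cell type. Of 15 endometrial epithelial markers, 14 were tested, 4 were raised and 5 lowered, and 2 were raised by DESeq2 or without ADP-CM replicate 3. Of all tested genes 13.5% were raised and 13.0% lowered, to be set beside each of these lists. The 4 epithelial markers with the smallest p-values were KRT19 (-0.85, from 267.5 ± 3.88 to 148.6 ± 4.14 CPM), KRT8 (-0.36, from 1843.3 ± 14 to 1438.2 ± 21.9 CPM), CDH1 (-0.42) and PAX8 (0.28). Called over 1.5-fold were 3, KRT19, MUC1 (1.27) and EMX2 (0.6), the last not called with DESeq2 (adjusted p = 0.0468). The epithelial list summed to 6063.8 to 6220.4 CPM in Control and 5371.2 to 5474.5 CPM in ADP-CM. The part of these shifts in the changes of MYC, SOX9 and KLF4 was not tested. In a bulk library fewer cells with a transcript and less of it in each cell cannot be told apart.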

How the data were processed

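RNA from 3 Control and 3 ADP-CM samples of RL95-2 cells was sequenced as 50 bp single reads from TruSeq stranded mRNA libraries. The authors aligned reads to UCSC hg19 with TopHat2 and deposited HTSeq's raw counts over NCBI RefSeq genes, 1 table per library. bcl2fastq and SAMtools stand in the submitters' processing notes. Program versions and the strand setting are not given in the sources used here. The study's own comparison used DESeq.

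Groups came from the sample labels. Reads on no gene and the other summary lines were left out. Of the total of reads on genes and all summary lines, 10.2% to 11.6% per library lay on no gene. Another 20.5% to 20.8% did not align uniquely. The counts were scaled by TMM in edgeR 4.0.16 (R 4.3.3) and filtered by filterByExpr at default settings (12663 of 23228 genes). The groups were compared with glmQLFit and glmQLFTest, edgeR's quasi-likelihood test, p-values were adjusted after Benjamini and Hochberg over all tested genes, and calls were made under an adjusted p of 0.01, with a second limit of 1.5-fold. CPM are TMM-normalized, with SD over 3 libraries. All replicate pairs differed by more than sampling noise. Alternatives were DESeq2 1.42.0, its size factors, library sizes alone, no filter, at least 10 counts in every library, the replicate number as a block, and each library left out.

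The factors and lists were chosen with earlier results of these data known, and the lists were written by hand. The text names the 10 factors, the 4 smallest p-values of each list or fewer, genes at 0, the 3 genes nearest in profile to MYC and to KLF4, and genes that share exons or copies with a factor. Not every gene under this rule is reported here. Others (PVT1, KLF12, KLF16, ABCB1, ALDH3A1 and SOX genes at 0 among them) were named after their values were seen. Positions and lengths are from GENCODE release 44 on GRCh37, in which 19137 symbols matched directly, 2138 by an older symbol and 1953 not at all. In simulated counts 50 genes were changed at each size, those of 25% and 2-fold all upward and those of 1.5-fold all downward. Every simulated gene had the common coefficient of variation of 1.67%, so differences in spread between genes were not simulated. On these counts edgeR called 37 of the genes changed by 25%, 43 at 1.5-fold and 48 at 2-fold among 12596 genes. DESeq2 called 30, 36 and 46 among 12663 genes, and each tool made 0 false calls.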

Additional observations from a re-analysis of the deposited data

Results flagged for a closer look

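The share of reads on no gene, in the total of reads on genes and all summary lines, was used by no comparison. It was higher in ADP-CM (11.5%) than in Control (10.3%), with no overlap between libraries. Of the list genes below the filter, 2 were flagged for a higher mean in ADP-CM than in Control. SOX15, a SOX gene of muscle and placental progenitors, had 0.401 CPM against 0.219 CPM. FCER1G, a leukocyte signalling chain, had 0.219 CPM against 0.139 CPM, a Control mean under the level of 3 reads (0.175 to 0.184 CPM). Other list genes below the filter also had a higher mean in ADP-CM, as with ESRRB (0.219 CPM against 0.101 CPM). Still others had a lower one, as with VWF (0.164 CPM against 0.478 CPM). These differences were not tested.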

How the results depend on the processing

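MYC, SOX9 and KLF4 kept their direction and their call under all 12 alternatives (with single libraries left out, 0.31 to 0.33, 0.21 to 0.27 and -0.18 to -0.13 on the log2 scale). DESeq2 called fewer genes than edgeR, 1978 instead of 3357, all among edgeR's calls, and 178 instead of 288 over 1.5-fold. The replicate numbers did not pair the libraries (correlations of same-numbered deviations of -0.0177, 0.0373 and 0.00659 over 9580 genes, and Control replicate 1 correlated best with ADP-CM replicate 3). With the replicate block 3502 genes were called, and 4 factors instead of 3, the fourth being SOX4 (adjusted p = 0.00889 by edgeR's quasi-likelihood test). SOX4 also passed with library sizes alone (0.00913), with no filter (0.00915) and without replicate 1 of either group (0.11 to 0.17 on the log2 scale over all libraries left out). Leaving out single libraries turned the sign of SOX2 (-0.28 to 0.09) and BMI1 (-0.01 to 0.30). Of 288 list counts under the alternatives, 254 were within 1.5 times the main count. Of 562 values of 47 other named genes, 517 kept direction and call and 43 lost the call. With 24 to 44 reads per library, the 95% intervals of SOX2 and BMI1 spanned 0.705 to 1.31 and 0.777 to 1.46 times the Control level.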
